A study of Vitis vinifera with 2 samples.

Results

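The regions described here are stretches of the grapevine genome, 100 kb each, in which cytosines in the CHG context carried little methylation. They were chosen from windows laid end to end along the sequences that the files number 1 to 19, which are called chromosomes below. A window was tested when at least 5000 cytosines were listed in both libraries, and it became a member when its CHG methylation level, taken over the reads of both libraries together, was 15% or less. Of 4273 windows, 4199 passed the minimum and 74 did not. The members numbered 1195, which was 28.5% of the windows tested, and they covered 119.5 Mb. The other 3004 windows covered 300.4 Mb. Among those, 802 windows with a CHG level of 50% or more served as a contrast, and that limit was set after the levels had been seen.

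The study compared the diploid grapevine 'Jingyanjing' (2X), a Vitis vinifera accession, with an autotetraploid (4X) obtained from it by colchicine treatment of tissue culture plantlets. Terminal buds of the shoot tips were collected shortly before those of 4X are shed, and buds of several vines were pooled into 1 library for each line. Whole-genome bisulfite sequencing was used, in which unmethylated cytosines are converted and read as thymine while methylated cytosines are still read as cytosine. With 1 library per line there was no replicate, so every test and interval below compares 2 libraries and covers counting error only, and the difference between lines cannot be told apart from that between pools or library preparations.

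In plants, cytosine methylation falls into contexts that different enzymes maintain. CG methylation is copied after replication by MET1-type enzymes and occurs both in transposons and inside the bodies of many expressed genes. CHG methylation, where H stands for A, C or T, is kept by chromomethylases that read histone H3 lysine 9 methylation, so it marks silenced chromatin, as does CHH methylation, which is placed by RNA-directed methylation and by another chromomethylase. Chromosome arms with many genes and few transposons therefore usually have CG methylation with little CHG, and this pattern is commonly called euchromatic. No gene annotation, histone mark or expression value was used here, so the members are called low-CHG windows.

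The CHG level chose the members and is given as a description. It ran from 1.11% to 14.997%, with a median of 8.71%, against a median of 37.1% in the other windows. Of the members, 227 were under 5%, 488 were between 5% and 10%, and 480 were between 10% and 15%. The lowest member lay on chromosome 4 from 600001 to 700000, with 1.11% (95% Wilson interval 1.05% to 1.18%) over 23653 cytosines shared by both libraries. Its CG level was 24.5% and its CHH level 0.446%. The distribution had no gap at the limit. Just inside it were a window of chromosome 14 from 800001 (14.997%, interval 14.7% to 15.3%), one of chromosome 12 from 2500001 (14.995%, 14.5% to 15.5%) and one of chromosome 17 from 7100001 (14.981%, 14.8% to 15.2%). Just outside were windows of chromosome 10 from 2700001 (15.004%, 14.7% to 15.3%), of chromosome 15 from 15900001 (15.024%, 14.8% to 15.3%) and of chromosome 6 from 3100001 (15.029%, 14.8% to 15.3%). A further 373 windows lay between 15% and 20%. Either library by itself drew nearly the same set: 1162 windows were at 15% or less in 2X, 1226 in 4X and 1156 in both.

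Of the members, 18 stood apart by depth and are named deep members here. The mean depth of a window is the number of reads per listed cytosine, and its median over all windows was 12.2 in 2X and 11.2 in 4X. The deep members had a 2X depth over 2 times that median, from 26.1 to 226, and their pooled CG level was between 1.94% and 16.7%. The deepest, on chromosome 9 from 21100001 to 21200000, had a depth of 226 in 2X and 203 in 4X, and it also held the lowest CG level (1.94%) and the lowest CHH level (0.334%) of all members. Its neighbouring windows had CHG levels of 40.7% and 43.1%. Another, on chromosome 2 from 11400001 to 11500000, lay between windows of 72.6% and 75.5%. In that window 95.3% of the 1 kb subwindows carried both CG and CHG methylation, yet its read-weighted CHG level was 8.80%, with a mean depth of 75.7 in 2X. In all, 6 members had more than 50% of their 1 kb subwindows methylated in both contexts, and 5 of them were deep members. When cytosines above the 99th percentile of depth were left out, and likewise when site levels were averaged without weights, 6 of the 18 remained at 15% CHG or less. The lowest CG level among the 1177 members that were not deep was 8.99%, and their median was 44.0%. The deep members held 11.6% of the CG reads of 2X in members. Results that rest on them are given with and without them.

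The low-CHG windows lay toward the chromosome ends, and mostly toward the end at which the numbering starts. With each chromosome divided into 5 equal parts, members made up 57.8% of the windows in the first part (491 of 850), 32.0% in the second, 8.18% in the third (68 of 831), 12.4% in the fourth and 31.3% in the fifth (265 of 848). By distance, the share was 42.1% within 1 Mb of the nearer end, 49.5% between 1 and 2 Mb, 44.5% between 2 and 4 Mb, 32.1% between 4 and 6 Mb, 20.7% between 6 and 8 Mb and 10.1% beyond 8 Mb. The outermost 1 Mb was therefore not the part richest in members. On 19 of 19 chromosomes the median member was nearer to an end than the median of the other windows.

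**Figure D1:**
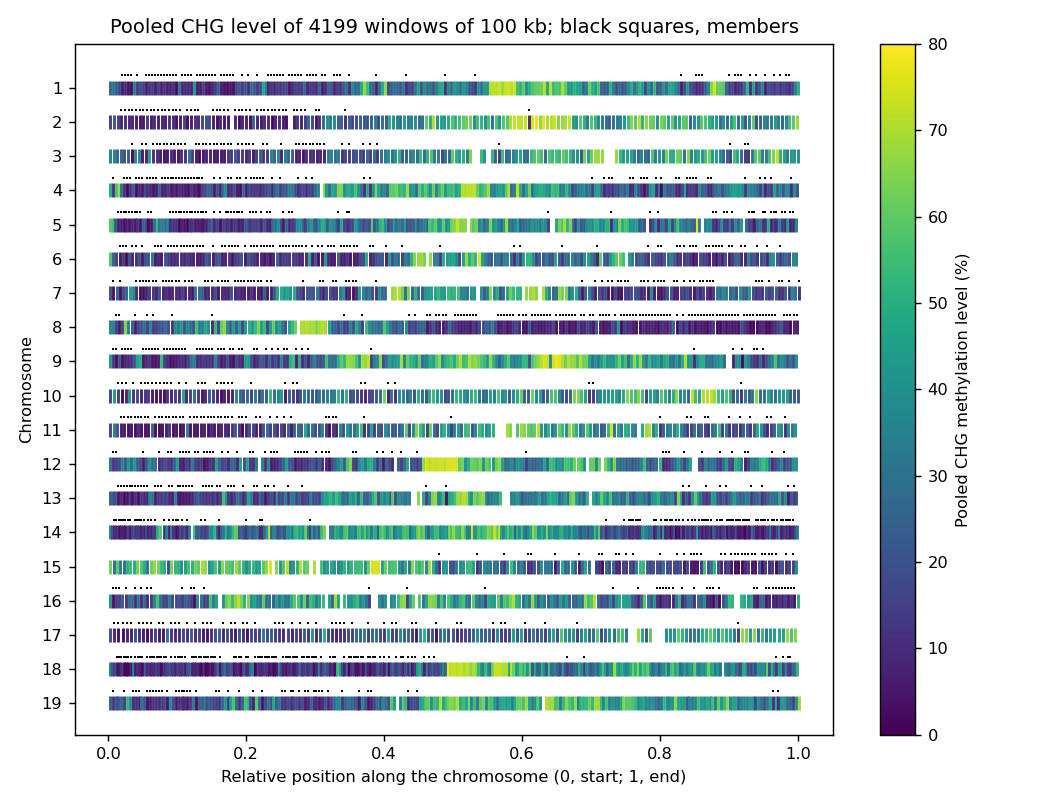
Every tested window of 100 kb as a tick along its chromosome (horizontal axis, relative position from 0 to 1; vertical axis, chromosomes 1 to 19), coloured by its pooled CHG level in percent, with members marked by black squares above. Members crowd toward the left end on most chromosomes and toward the right end on chromosomes 8, 14, 15 and 16.

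The chromosomes differed in how much of them was low in CHG. Chromosome 8 had the highest share, 109 of 223 windows (48.9%), followed by chromosome 6 with 41.8% and chromosome 7 with 38.6%. The lowest shares were those of chromosome 15, with 37 of 199 windows (18.6%), chromosome 10 (18.7%) and chromosome 19 (18.8%). Both ends of this order also had unusual layouts. On chromosome 8 the last part held 39 of 45 windows (86.7%) and the first part 7 of 45 (15.6%). On chromosome 15 the first part held none of 41 windows and the last part 24 of 41 (58.5%). Chromosome 2 showed the opposite layout, with 30 of 37 windows (81.1%) in the first part and none of 38 in the last. Chromosome 11 (34 of 40 in the first part, 10 of 39 in the last) and chromosome 7 (29 of 42 and 20 of 43) had members at both ends and 1 of 36 and 0 of 40 in the middle part.

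Members formed 470 runs of neighbouring windows. A run is an unbroken series of members, and 248 of the runs were 1 window long. At the other end, 69 runs of 5 or more windows held 551 members (46.1%), and 16 runs of 10 or more held 201. The other windows formed longer runs, 527 in all with 2281 windows (75.9%) in runs of 5 or more and a longest run of 12.1 Mb. The longest runs of members were 17 windows (1.7 Mb) and there were 3 of them. They lay on chromosome 8 from 18800001 to 20500000, on chromosome 8 from 16600001 to 18300000 and on chromosome 2 from 300001 to 2000000. Their mean CHG levels were 5.92%, 7.39% and 7.90%, and their mean CG levels 33.1%, 34.8% and 33.8%. When a single other window was allowed inside a run, 276 runs remained and the longest reached 9.1 Mb.

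**Figure D2:**
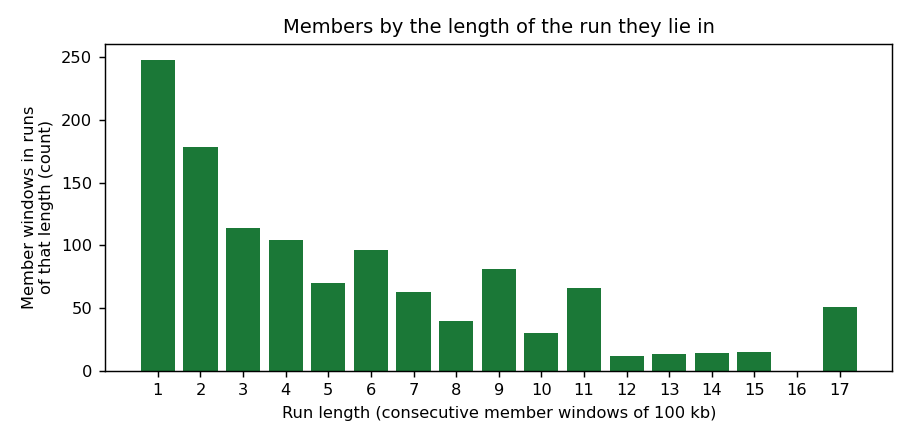
Number of member windows (vertical axis) by the length of the run they lie in (horizontal axis, consecutive windows of 100 kb). The 248 runs of 1 window form the highest bar, and 3 runs of 17 windows form the last.

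The longest run of each other chromosome was between 0.5 and 1.5 Mb. Those of chromosomes 4 (1800001 to 3300000), 5 (2200001 to 3600000) and 11 (2300001 to 3600000) were 1.5, 1.4 and 1.3 Mb long, with mean CHG levels of 6.99%, 7.11% and 6.03%. Chromosome 6 had 1.2 Mb (1800001 to 3000000, CHG 8.88%). Runs of 1.1 Mb were found on chromosomes 1 (1200001 to 2300000), 3 (2400001 to 3500000), 13 (300001 to 1400000), 14 (27100001 to 28200000) and 18 (3500001 to 4600000). Of these, the run of chromosome 18 was lowest in CHG (5.14%) and CG (32.2%), and that of chromosome 1 highest in both (9.26% and 52.4%). Chromosome 16 had a run of 1 Mb (21000001 to 22000000), and chromosomes 7 (3800001 to 4700000) and 10 (800001 to 1700000) had runs of 0.9 Mb. Chromosomes 9 (1800001 to 2600000) and 15 (18300001 to 19100000) had runs of 0.8 Mb, and the latter had the lowest mean CHG level of all these runs, 4.70%. The shortest were those of chromosomes 19 (2300001 to 2900000, 0.6 Mb), 12 (6100001 to 6600000, 0.5 Mb) and 17 (100001 to 600000, 0.5 Mb). Most of these runs began between 0.1 and 4 Mb from the start of the numbering, whereas those of chromosomes 8, 14, 15 and 16 lay near its far end.

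Levels were also compared across the borders of runs. Over 54 borders with at least 3 members on the inner side and 3 other windows on the outer side, the median CHG level was 8.42%, 8.87% and 7.73% in the members approaching the border and 22.01%, 25.1% and 24.7% in the windows beyond it. The rule fixes that these levels differ. Only borders with 3 windows of each kind were kept, which favours a step in CHG at the border, so nothing is read from its sharpness. The CG level went from 43.3% in the last member to 58.0% in the first other window, and the CHH level from 1.25% to 2.07%, while CG cytosines per kb were 18.8 and 18.2.

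Isolated members, with a tested other window on each side, numbered 241. The 3 whose neighbours had the highest CHG levels were the deep member of chromosome 2 described above, a window of chromosome 16 from 9500001 (CHG 14.4%, neighbours 66.7% and 46.9%) and one of chromosome 4 from 100001 (CHG 11.5%, neighbours 48.4% and 56.5%). The latter windows had ordinary CG levels, 39.4% and 44.5%. Members and runs were both set by the CHG level, so its values by run length are given as a description only. The median CHG level was 11.1% in runs of 1 window, 9.24% in runs of 2 to 4, 7.82% in runs of 5 to 9 and 6.97% in runs of 10 or more. The median CG level followed the same order, with 49.6%, 45.0%, 41.1% and 40.1%, and so did the CHH level, with 1.38%, 1.25%, 1.17% and 1.13%. CG cytosines per kb went the opposite way, with 16.3, 18.1, 18.9 and 19.04.

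The members were lower than the other windows in the contexts that the rule did not name. The median pooled CG level was 43.8% in members (quartiles 34.9% and 52.1%) and 69.0% in the others (59.4% and 76.4%). CG methylation was thus reduced in the members but far from absent. The median pooled CHH level was 1.24% (0.993% and 1.52%) and 2.70% (2.17% and 3.36%), respectively. Both medians were lower in members on 19 of 19 chromosomes, where those of CG ran from 34.7% to 52.2% in members and from 63.5% to 76.2% in the others. The reads are the same as those that chose the members, so these values are a description without a test.

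CG levels of members ran from 1.94% to 78.9%, a range that the rule did not limit as it did that of CHG. The highest CG level, 78.9%, was found on chromosome 6 from 17100001 to 17200000 together with a CHG level of 13.7% and a CHH level of 1.56%. A CG level above 60% was found in 98 members, and 13 were under 10%, of which 12 were deep members. The highest CHH level, 4.97%, was that of a window on chromosome 5 from 1000001 to 1100000, and both libraries showed it (2X 5.12%, 4X 5.25%). In members under 5% CHG, the median CG level was 34.4% and the median CHH level 0.799%. In members between 10% and 15% CHG they were 49.5% and 1.502%. Across the 1195 members, Spearman's rho with the CHG level was 0.46 for CG and 0.71 for CHH, as a description across windows that share libraries, depth and base composition.

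**Figure D3:**
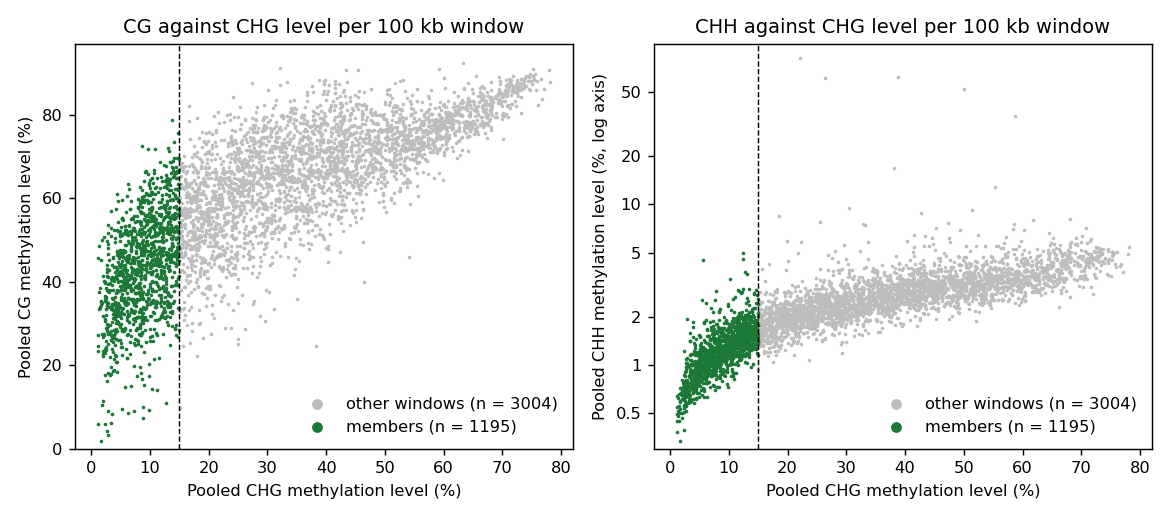
Pooled CG level (left, percent) and pooled CHH level (right, percent on a log axis) of each 100 kb window against its pooled CHG level (percent), with 1195 members in green, 3004 other windows in grey and a dashed line at the limit of 15%. Members spread over a wide range of CG levels, and the green points under 20% CG include the 18 deep members.

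The ratio of CHH to CHG level had a median of 0.146 in members and 0.0745 in the other windows, and it was higher in members on 19 of 19 chromosomes. Its denominator is the level that chose the members, so a higher ratio follows largely from the rule and nothing is read from it. The share of unmethylated cytosines that escaped conversion is not given in the sources used here. It adds to both contexts and weighs more where levels are low, and its part in this ratio was not tested.

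Single CG cytosines of members were mostly, though not all, near the extremes. Among CG cytosines with at least 10 reads, 44.9% were methylated in under 10% of reads in 2X and 30.2% in 90% or more, with 6.23% between 10% and 50% and 18.6% between 50% and 90%. In the other windows these shares were 19.1%, 46.8%, 5.73% and 28.4%. In 4X the members had 44.7% under 10% and 30.9% at 90% or more. For CHG cytosines of members, 86.7% were under 10% in 2X and 3.41% at 90% or more, against 47.7% and 15.4% in the other windows. Fully methylated CHG sites were thus present within the low-CHG windows.

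CG density differed little. Members held a median of 18.2 CG cytosines per kb, counting both strands and every cytosine listed in either library, and the other windows 17.2. Members were higher on 13 of 19 chromosomes. The CHG-rich windows had 18.6 per kb. The density of CHG cytosines differed more, with medians of 36.1 per kb in members, 27.2 in the other windows and 24.9 in the CHG-rich windows. The number of CHG cytosines per CG cytosine was 1.97, 1.53 and 1.34, and for both measures members were higher than the other windows on 19 of 19 chromosomes. Low-CHG windows therefore offered more CHG cytosines than the windows in which these were methylated. The member with the most CG cytosines, 34.3 per kb, was the deep member of chromosome 2. The one with the fewest, 3.65 per kb, was the short last window of chromosome 7, from 21000001 to 21024674.

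At a scale of 1 kb the members were mosaics. Each 1 kb window with enough shared cytosines (at least 20, with 5 or more CG and CHG) was classed from both libraries together as unmethylated (CG and CHG under 10%), CG only (CG at 30% or more and CHG under 10%, the pattern of methylated gene bodies), CG and CHG (both at 30% or more, the pattern of silenced transposons) or other. In members, 29.7% of 95918 such windows were unmethylated, 36.6% were CG only, 18.4% were CG and CHG and 15.3% were other. In the other 100 kb windows these shares were 11.8%, 16.6%, 60.2% and 11.5%. The rule rests on CHG, so a smaller share of the CG and CHG class follows from it. The median member held 18.1% of that class, and 1 member held none.

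**Figure D4:**
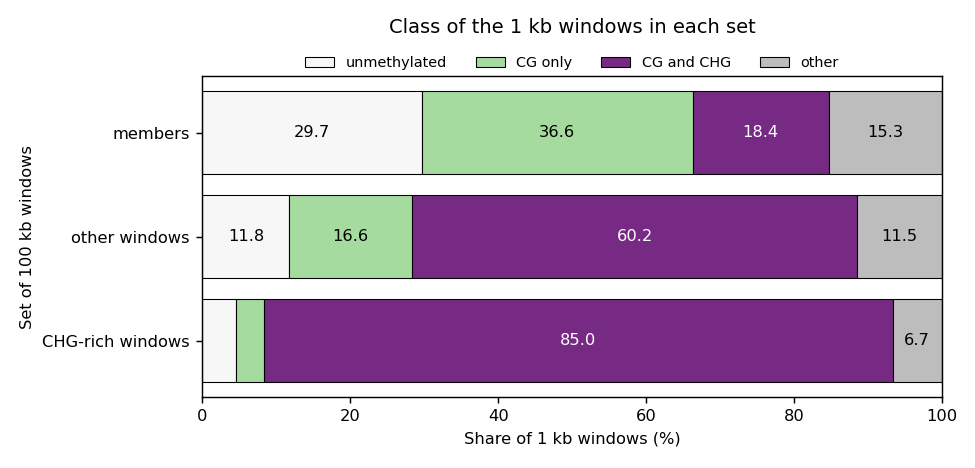
Share of 1 kb windows (horizontal axis, percent) in each of 4 methylation classes, for members, the other 100 kb windows and the CHG-rich windows. Windows methylated in both CG and CHG make up 18.4% in members, 60.2% in the other windows and 85.0% in the CHG-rich windows.

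The CG and CHG class accounted for most of the CHG methylation of members. It held 80.5% of their methylated CHG reads and 60.2% of their methylated CHH reads, and its median CHG level was 66.1%, against 71.5% in windows of the same class outside members. Its median CHH level was 3.81% and 4.11%, respectively. The class is defined by a high CHG level, so its large share of methylated CHG reads follows largely from the definition. Members were chosen by low CHG, so its lower CHG level inside them is given as a description. The patches were short. An unbroken series of this class averaged 2.05 kb in members and reached at most 26 kb, whereas it averaged 3.93 kb and reached 167 kb elsewhere. The CHG limit leaves little room for long patches in members, and series were cut at the borders of members. The contrast in length therefore follows largely from the rule, and nothing is read from it. The CG only class had a CG level of 72.7% in 2X with a CHG level of 1.06%, and the unmethylated class had 1.40% and 0.604%. The CG only windows held 3.29 CHG cytosines per CG cytosine, the unmethylated windows 1.56 and the CG and CHG windows 1.09. Between the libraries, 92.6% of the 1 kb windows of members fell in the same class. Changes between any of the 3 named classes were few, with 11 windows going from unmethylated in 2X to CG only in 4X, 4 from unmethylated to CG and CHG, 6 from CG only to unmethylated, 6 from CG only to CG and CHG, 9 from CG and CHG to CG only and 0 from CG and CHG to unmethylated.

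Over all members, methylation was lower in 4X than in 2X in each context when reads were summed at cytosines listed in both libraries. The CG level was 39.5% in 2X and 39.2% in 4X, a difference of -0.333 percentage points (95% Newcombe interval -0.361 to -0.305) over 1720686 cytosines. The CHG level was 8.52% and 8.12%, a difference of -0.403 points (-0.414 to -0.392), and the CHH level 1.26% and 1.21%, a difference of -0.0553 points (-0.0572 to -0.0534). Relative to 2X these were changes of -0.843%, -4.73% and -4.37%. The mean depth was higher in 2X, 13.5 against 12.5 at CHG cytosines.

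CHG was lower in 4X in 945 of 1195 members and CHH in 854, which was 79.1% and 71.5% of members, against 72.1% and 67.8% of all tested windows. Both were lower on 19 of 19 chromosomes, as CHG also was in the other windows. CG was lower in 659 members, 55.1% against 51.9% of all windows, and on 16 chromosomes. The widest chromosome values of CG, -1.37 points on chromosome 13 and -0.886 points on chromosome 10, became -0.373 and -0.111 without their deep members. The sign of the CG difference also changed on chromosomes 9 (0.217 to -0.181), 19 (0.137 to -0.0872) and 15 (-0.548 to 0.0967). CG was then lower in 4X on 17 chromosomes. With the deepest cytosines left out instead, it was lower on 14, so the count and the chromosomes depended on deep sites. Without the 18 deep members, the CG level was 43.7% in 2X and 43.5% in 4X, a difference of -0.250 points (-0.280 to -0.220), with CHG at -0.415 and CHH at -0.0560 points. The direction of the CG difference depended on how sites were weighted, because the unweighted mean of site levels was 0.226 points higher in 4X. By the same measure the CHG difference was -0.0664 and the CHH difference -0.0322 points.

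Within the 1 kb classes of members, the CG difference was above 0 in both methylated classes. It was 0.549 points (0.494 to 0.603) in the CG and CHG class, 0.0907 points (0.0408 to 0.141) in the CG only class and -0.0566 points (-0.0670 to -0.0463) in the unmethylated class. CHG differed by 0.0719, -0.137 and -0.0630 points in these classes. In the class other, CG differed by -0.0467 points (-0.120 to 0.0267), CHG by -0.419 and CHH by -0.0341. No class had a CG difference as low as the -0.333 points over all members. That total also rests on how reads were spread over the classes and on 1 kb windows that were not classed. The part of each was not tested. CHH differed by -0.0424 points in unmethylated windows and -0.0429 points in CG only windows, and by -0.00790 points (-0.0162 to 0.000409) in the CG and CHG class. In the unmethylated class, the CHH difference was therefore present where almost no cytosine was methylated. The other 100 kb windows had CHH differences of -0.0430, -0.0491 and -0.0191 points in the unmethylated, CG only and CG and CHG classes. Unequal conversion of the libraries cannot be told apart from the lines in this design.

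**Figure D5:**
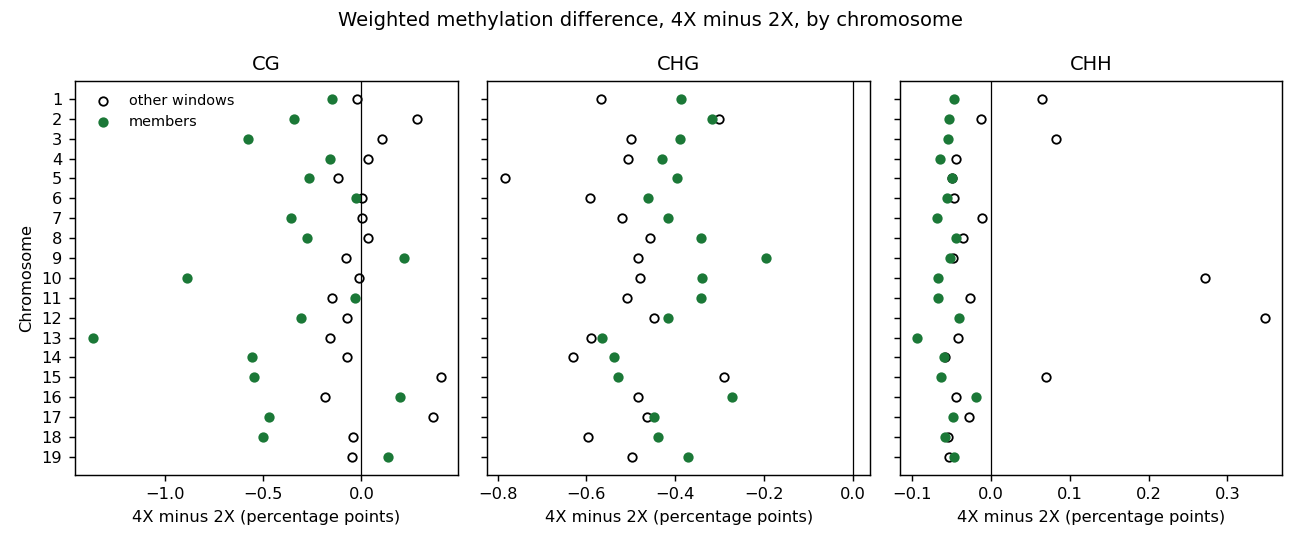
Difference in read-weighted methylation level, 4X minus 2X in percentage points (horizontal axes), for CG, CHG and CHH on each chromosome (vertical axis), with members in green and the other windows as open circles. Members are below 0 on 16, 19 and 19 of 19 chromosomes, and the lowest CG values, on chromosomes 13 and 10, include deep members.

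Compared with the rest of the chromosomes, the members differed between the libraries as follows. In the other windows the differences were 0.00955 points for CG (-0.00801 to 0.0271), -0.521 for CHG and 0.0145 for CHH. Relative to 2X, CHG changed by -1.38% there and by -4.73% in members, so its order depends on the scale. In points, the members' differences minus those of the other windows were -0.342 for CG (-0.375 to -0.310) and 0.118 for CHG (0.0996 to 0.137). For CHH the value was -0.0698 (-0.0724 to -0.0672). Without the deep members these contrasts were -0.260, 0.106 and -0.0705 points. Over all members, the 3 contrasts shrank or turned with the weighting. As unweighted means of site levels they were -0.0167, -0.0378 and 0.0147 points. With cytosines above the 99th percentile of depth left out, the CHH difference of the other windows was -0.0448 points and that of the members -0.0553, so that -0.0104 points lay between them. The CG and CHG contrasts were then -0.218 and 0.107 points. Of the 3 contrasts, that of CG kept its sign in these settings, while those of CHG and CHH changed sign with unweighted means.

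Single members departed more than the sum over members. The largest CG increase was found on chromosome 8 from 22100001, from 36.3% in 2X to 40.2% in 4X, and the largest decrease on chromosome 9 from 1100001, from 37.0% to 32.9%. In CHG the extremes were the short last window of chromosome 7, from 10.1% to 11.9%, and a window of chromosome 17 from 4100001, from 16.1% to 13.2%. In CHH they were a window of chromosome 18 from 4500001, from 2.66% to 3.18%, and one of chromosome 9 from 5900001, from 2.36% to 1.78%. None of these windows was a deep member.

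A change past 1.2-fold in either direction was rare at 100 kb. In CG, 2 members passed it, both lower in 4X and both deep members, where 0.0476% of all tested windows passed. In CHG, 38 members passed (3.18%), all lower in 4X (all windows, 0.905%), and no other window passed. Their median CHG level was 4.67%, and 19 of them were under 5%. The furthest was a window of chromosome 5 from 2500001, where 583 of 46598 CHG reads were methylated in 2X (1.25%) and 378 of 42600 in 4X (0.887%). In CHH, 49 members passed (4.10%, all windows 1.48%), 45 of them lower in 4X (3.77%, all windows 1.33%) and 4 higher (0.335%, all windows 0.143%), and 13 other windows passed. A given fold needs a smaller difference where the level is low, so these counts do not compare the sets on equal terms.

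Single cytosines were compared by Fisher's exact test on methylated and unmethylated reads, with Benjamini-Hochberg adjustment over all shared cytosines of a context. At an adjusted p under 0.05, 578 CG cytosines of members were called, 0.0336% of those tested, against a background of 0.023% over all sequences. Of these, 520 were higher in 4X (0.0302%, background 0.02%) and 58 lower (0.00337%, background 0.00298%). The higher ones had a median level of 5.56% in 2X and 86.2% in 4X, with a median of 28 and 23 reads at each site. They were spread over 302 member windows on 19 chromosomes and over 376 windows of 1 kb, of which 28 held 3 or more. In CHG, 177 were called, 0.00508% against a background of 0.00569%. Of these, 149 were higher in 4X (0.00427%, background 0.00429%) and 28 lower (0.000803%, background 0.0014%). In CHH, 5 were called, all higher in 4X (background 8.81e-06%). The calls went mostly upward in 4X, whereas the levels summed over all shared cytosines were lower in 4X in each context.

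The densest group of calls, chosen after its values were seen, lay on chromosome 9 from 3810001 to 3811000. It held 6 CG and 11 CHG calls, all higher in 4X. Over that 1 kb the CG level was 25.8% in 2X and 80% in 4X, and the CHG level 24.3% and 77.7%, while the CHH level was 5.40% and 3.88%. The next was on chromosome 4 from 2021001 to 2022000. It held 2 CG and 6 CHG calls, and its CHG level was 3.51% in the diploid and 66.9% in the tetraploid. Both loci were highly methylated at CHG in 4X, inside a 100 kb window whose pooled CHG level was 15% or less.

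Differentially methylated regions (DMRs) were sought in bins of 100 bp, moved by 25 bp, by a Kruskal-Wallis test on site levels with the same adjustment, and neighbouring called bins of a direction were merged. Cytosines within a bin are counted as separate values by this test, although they come from 2 libraries and are often read together. In CG, 4 DMRs lay in members, 1 higher and 3 lower in 4X (background, 0.000435% of bins called). The one higher in 4X, on chromosome 12 from 2984951 to 2985050, held 20 cytosines whose mean level was 40.1% in the diploid and 89.0% in the tetraploid. The lower one with the smallest adjusted p was on chromosome 18 from 7952576 to 7952700. In its bin with the smallest adjusted p, 7952576 to 7952675, 17 cytosines averaged 97.7% in 2X and 56.8% in 4X. The depths there were only 5.12 and 5.53. In CHG there was 1 DMR (background 5.11e-05%), on chromosome 9 from 3810801 to 3810900. None of its 185 reads was methylated in 2X and 254 of 292 were in 4X, a site mean of 87.3%. It lay inside the densest group of single-cytosine calls.

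Nearly all DMRs were in CHH, where members held 13226, 5823 higher and 7403 lower in 4X. In members, 1.57% of tested CHH bins were called, against 0.924% in the other windows and a background of 1.05%. Bins whose site levels were all equal were not tested, so these shares depend on how many bins carried methylation. By length, members held 48.7 DMRs higher in 4X and 61.9 lower per Mb, and the other windows 37.0 and 49.3. Every member held at least 1, with a median of 11 per window and a highest count of 28, while the other windows had a median of 8. Most were of low level. The level of a DMR is given here for its bin with the smallest adjusted p. The median level of the higher ones was 0% in 2X and 7.504% in 4X, and that of the lower ones 6.88% and 0%. Only 145 and 153 of them reached 50% in either library. Within members they were similarly frequent in all 1 kb classes, with 0.104 per window in the unmethylated class, 0.140 in the CG only class and 0.127 in the CG and CHG class. Those with the smallest adjusted p were on chromosome 1 from 8091001 to 8091325 and on chromosome 8 from 1256826 to 1257075. In the bin of the first with the smallest adjusted p, 8091126 to 8091225, 55 cytosines averaged 21.2% in 2X and 93.9% in 4X. The depths there were 8.76 and 5.96. In that of the second, 1256876 to 1256975, 45 cytosines averaged 97.2% in 2X and 50.9% in 4X, at depths of 8.73 and only 3.98. Site levels at a depth near 12 move in coarse steps, and neighbouring cytosines are read on the same molecules. The count fell to 4235 when at least 10 reads were required in both libraries. Fisher's exact test on the summed reads of a bin gave 2971 CG, 2379 CHG and 16925 CHH DMRs in members, with 69.1%, 49.7% and 51.0% of them higher in 4X. By that test 0.858%, 0.700% and 2.15% of the tested bins of members were called, against backgrounds of 0.628%, 0.673% and 1.65%. Bins with no methylated read, or with only methylated reads, were not tested, so these shares depend on how many bins carried methylation. In CHG, 1086368 bins were tested in members and 4112160 in the other windows. Members held 2379 CHG DMRs over 119.5 Mb and the other windows 9209 over 300.4 Mb, so members held fewer per Mb.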

How the data were processed

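Whole-genome bisulfite sequencing was carried out by the authors on 1 library of 2X and 1 of 4X. The study states that low-quality reads were removed and reads aligned with a program spelled Bimark, and that cytosines with at least 3 reads were kept. Program versions, genome build, removal of duplicates and conversion rate are not given in sources used here. The deposited files list, for each cytosine, its methylation level in percent, as the authors computed it, with the counts of methylated and unmethylated reads and its context; the level equalled that from the deposited counts within 0.0001% in every line. The header names fewer fields than the lines hold. The files held 109144727 (2X) and 107953691 (4X) cytosines with a mean depth of 12.9 and 11.9, and 97179016 were shared. A few lines with no context (10 and 6) were left out.

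Levels are methylated reads over all reads, so a deep site weighs more. Pooled levels used every listed cytosine, and differences between libraries used shared ones. Intervals (95%, Wilson and Newcombe) cover counting error only, since no molecular identifiers were read and several reads may come from 1 molecule. The minimum of 5000 was read as cytosines listed in both files. Fisher's exact test and the Kruskal-Wallis test were adjusted by Benjamini-Hochberg (0.05) over all sequences of the files, 33 in number. A bin needed at least 2 cytosines. Bins whose site levels were all equal were left out of the Kruskal-Wallis test. Bins with only unmethylated or only methylated reads were left out of Fisher's exact test. A DMR was placed by its centre. The procedures were tested on simulated data. Python 3.11.15 with numpy 2.4.6, pandas 2.3.3, scipy 1.17.1 and numba 0.67.0 was used. Members, limits and comparisons were chosen with earlier results of these data known. The windows and loci named are, by rule, the longest runs, the extremes of each level and difference, those next to the limit, the most contrasting isolated members and the DMR with the smallest adjusted p for each context and direction. No sequence or gene is given, since no genome of the files' build was used here. Alternatives were other limits, windows, read minimums, weightings and tests.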

Additional observations from a re-analysis of the deposited data

Results flagged for a closer look

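Cytosines of members that were listed in one library alone entered no comparison between libraries. Their levels were above that of 3 methylated reads among all their reads. With so many reads, a few unconverted cytosines would also pass that limit, so nothing is read from passing it. Those listed in 2X alone had a level of 32.4% in CG, 10.5% in CHG and 1.68% in CHH, at a mean depth of 4.78, 4.91 and 4.90 reads. Those listed in 4X alone had 29.6% in CG, 8.68% in CHG and 1.44% in CHH, at 4.64, 4.79 and 4.74 reads. These cytosines were shallower than the shared ones and differ between the libraries, so their levels are given side by side and were not tested.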

How the results depend on the processing

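With a CHG limit of 10% there were 715 members, and with the other limits, libraries, windows and minimums tried between 1162 and 1568. The unweighted mean of CHG site levels gave 1222 windows, of which 1120 were members, and kept 6 of the 18 deep members. The CG difference of members, -0.333 points, was -0.283 with at least 5 reads, -0.274 with at least 10, -0.428 over all rows of each library, -0.148 with the deepest cytosines left out, -0.287 and -0.366 at limits of 10% and 20%, and -0.250 without the deep members. It reversed to 0.226 as a mean of site levels; the cause was not tested. The CHG difference was -0.383, -0.338 and -0.457 in the first 3 of these settings, -0.329 and -0.475 at limits of 10% and 20%, -0.415 without the deep members and -0.0664 as a mean of site levels. The CHH difference was -0.0512, -0.0404 and -0.0632, then -0.0507 and -0.0574 at the limits, and -0.0322 as a mean of site levels. CG DMRs numbered 2971 by Fisher's exact test on summed reads, 15 with at least 5 cytosines per bin and 1 with at least 10 reads. CHG DMRs numbered 2379, 2 and 0, the last with 19021 bins at an unadjusted p under 0.05. CHH DMRs numbered 4235 with at least 10 reads and 26010 with only cytosines that had a methylated read. Without the highest depths, 1 member passed 1.2-fold in CG. With at least 10 reads, 9.24 CG cytosines per kb were left, since fewer were counted. Limits of 5% and 50% gave 26.1% unmethylated, 28.9% CG only and 13.6% CG and CHG windows of 1 kb, and at least 10 reads 29.1%, 39.0% and 17.9%. Bridging 1 other window gave 276 runs and a longest run of 91 windows. Counts of called cytosines stayed within 1.5 times. The exclusion of deep members and the minimum in each file were added once the data had been seen.

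No paired analysis was possible because there is 1 library a line, and leaving out a library was not possible for the same reason. The planned comparison of sequences and genes was not run, because no genome or annotation of the files' build was used here. A depth near 12 reads limits single cytosines to large differences.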
